A study of Mus musculus with 8 samples.

Results

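The 10 genes described here encode chains of the cell surface receptors for interferons and for cytokines of the IL-10, IL-4/IL-13 and IL-17 families. They are Ifngr1 and Ifngr2 (interferon-γ), Ifnar1 and Ifnar2 (type I interferons), Il10rb (the IL-10 family and interferon-λ), Il4ra and Il13ra1 (IL-4 and IL-13), and Il17ra, Il17rb and Il17rc (the IL-17 family). They were taken by symbol from the 21878 genes of the deposited expression table, with earlier results of these data known. All 10 were among the 11845 genes that entered the test. The study measured RNA in wild-type astrocytes, glial cells that support neurons and shape brain inflammation, isolated from newborn (P0) C57BL/6 mice. One group of 4 libraries came from cells left untreated, and the other group of 4 libraries came from cells given IL-1α, TNFα and C1q together, called the cocktail here. The cocktail is used to bring cultured astrocytes into a reactive state marked by the complement fragment C3d. The labels give no dose or duration. They call the libraries of a group duplications and do not say whether these were separate cultures or animals, so the p-values below measure the spread between libraries, which may be technical.

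These receptors work as assemblies of different chains. A ligand-binding chain and a partner chain are brought together by the cytokine, and in the interferon, IL-10 and IL-4/IL-13 receptors the chains carry JAK kinases that phosphorylate STAT transcription factors. The IL-17 receptors have a different intracellular domain that recruits the adaptor Act1 (gene Traf3ip2) and TRAF proteins, leading to NF-κB and to stabilization of short-lived chemokine mRNAs. A cell needs the chains of a receptor together to respond to its ligand, and astrocytes are known to respond to interferons and to IL-17.

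Depth was 19195898 to 20640490 fragments per library. Values are FPKM, which are counts of fragments scaled to gene length and library depth. Levels of different genes can be set side by side only as far as the gene lengths used are right. The summed FPKM of 10 astrocyte markers (among them Gfap, Aqp4, Aldh1l1 and Slc1a3) was 1052 to 1188 in untreated and 845 to 872 in cocktail libraries. Marker sums of other cells were lower in every cocktail library for neurons (140 to 158 against 52.4 to 59.6), oligodendrocyte lineage (166 to 176 against 97.1 to 102, with Mog at 0 in every library), endothelium (5.09 to 5.54 against 1.63 to 2.09, with Cldn5 at 0 in every library), mural cells (1078 to 1222 against 243 to 274) and fibroblasts (348 to 443 against 250.3 to 292). The sum of 12 microglial markers was 12.9 to 14.8 in untreated libraries and 16.86, 17.97, 38.37 and 51.61 in cocktail libraries 1 to 4. Of those 12 markers 6 were tested, and 5 of them were called higher and none lower. Of all tested genes 26.6% were called higher and 41.1% lower. In the other lists single markers did not all follow the sums. For neurons 1 was called higher and 2 lower of 4 tested, and for the oligodendrocyte lineage 1 and 3 of 5. For mural cells it was 0 and 4 of 5, for fibroblasts 3 and 3 of 7, and for astrocytes 2 and 7 of 9. The 1 tested endothelial marker was called lower. The mean log2(FPKM + 1) of a list differed between groups by an exact two-sided permutation test for neurons, endothelium, mural cells, fibroblasts and astrocytes (p = 0.040 for each, adjusted over the 7 lists) but not for the oligodendrocyte lineage (0.067) or microglia (0.086). For fibroblasts that mean was higher in the cocktail libraries (4.197 against 3.628), opposite to the sum. Cocktail libraries 1 and 2 also stood apart from 3 and 4 on the second principal component, which held 2.11% of the variance. The part of these other cells in the receptor values was not tested, and values without either pair of libraries are given where the receptors follow that split.

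In limma, 7 of the 10 receptor genes rose with the cocktail, 2 fell and 1 was not called at a Benjamini-Hochberg adjusted p of 0.05 over all genes tested. Among all tested genes 26.6% were called higher and 41.1% were called lower. A rise of at least 1 on the scale log2(FPKM + 1) was seen for Il13ra1, Ifnar2, Ifngr1 and Il10rb, 4 of the 10, against 4.08% of all tested genes. A fall of at least 1 on that scale was seen for Il17rb, 1 of the 10, against 4.56% of all tested genes; Il17rb entered the test only through its untreated libraries, so nothing is read from that count. The untreated and cocktail libraries did not overlap for 9 of the 10, against 62.7% of all tested genes. Il17rb is among these 9 and among the 2 that fell, and its separation was likewise built into its selection. The median log2 change was 0.83 over the receptor genes and -0.05 over all tested genes. Under another scaling, by median ratios or by quantiles, the share of higher among all called genes moved from 39.3% to 51.8% and 48.6%, and the receptor counts became 8 higher and 2 lower under both.

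**Figure D1:**
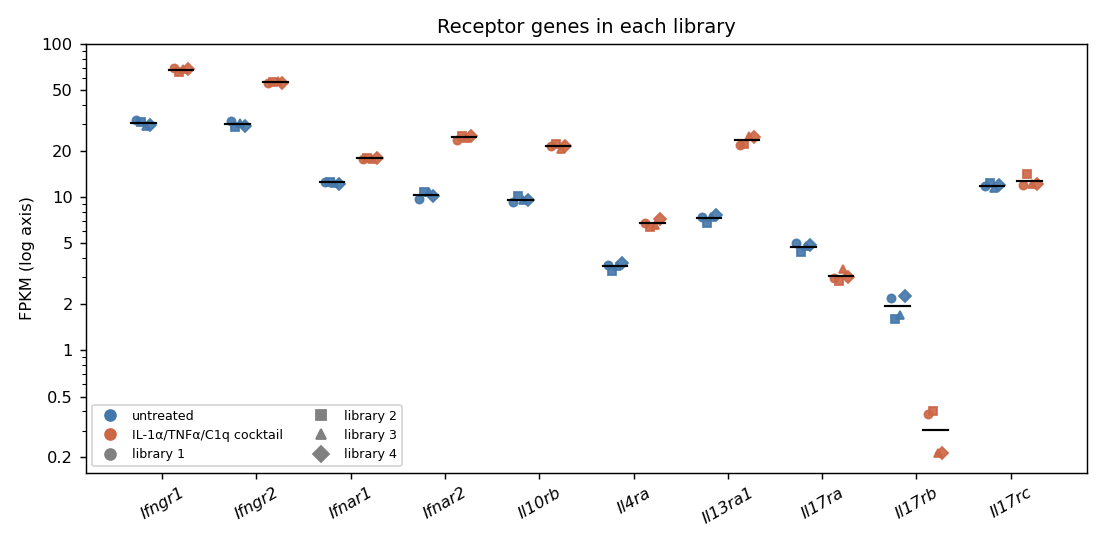
FPKM (log axis) of the 10 receptor genes in each of the 4 untreated (blue) and 4 cocktail (orange) libraries, with marker shapes for libraries 1 to 4 and a bar at each group's mean. The interferon, IL-10 family and IL-4/IL-13 chains lie higher in every cocktail library, Il17ra and Il17rb lie lower in every cocktail library, and the groups overlap for Il17rc.

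Stretches of sequence upstream of 5 of these genes are shown. Il13ra1, Ifnar2 and Ifngr1 had the 3 largest rises on the log2(FPKM + 1) scale and Il17rb the largest fall. The Ifngr2 stretch holds matches to binding motifs of NF-κB and of STAT factors, and the Ifnar2 stretch to a STAT motif only. Where each stretch lies was set gene by gene. That of Ifnar2 takes in its STAT motif match and leaves out a GC box at its start. They are 100 bases each, 5′ to 3′ on the gene's strand, from RefSeq on GRCm38.p6. Capitals mark motif matches on either strand, namely the NF-κB consensus, TTCNNNGAA (the GAS motif), TTCNNNNGAA (a spacing preferred by STAT6) and the GC box GGGCGG, whose copies can overlap each other.
Ifngr2, chr16:91546959-91547058, plus strand, ending 1 base before the start: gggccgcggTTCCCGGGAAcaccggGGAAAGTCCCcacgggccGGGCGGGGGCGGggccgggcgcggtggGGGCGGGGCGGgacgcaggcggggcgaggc
Ifnar2, chr16:91372563-91372662, plus strand, ending 121 bases before the start: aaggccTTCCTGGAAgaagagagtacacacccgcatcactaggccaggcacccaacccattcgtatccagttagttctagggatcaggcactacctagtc
Il13ra1, chrX:36111988-36112087, plus strand, ending 21 bases before the start: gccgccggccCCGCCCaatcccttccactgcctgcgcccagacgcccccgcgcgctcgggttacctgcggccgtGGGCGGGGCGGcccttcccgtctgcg
Ifngr1, chr10:19591839-19591938, plus strand, ending 11 bases before the start: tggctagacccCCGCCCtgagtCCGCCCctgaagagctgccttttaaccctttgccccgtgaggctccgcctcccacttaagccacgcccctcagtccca
Il17rb, chr14:30008897-30008996, minus strand, ending 1 base before the start: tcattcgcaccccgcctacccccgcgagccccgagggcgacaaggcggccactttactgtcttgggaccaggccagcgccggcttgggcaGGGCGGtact

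Windows from 250 bases before to 50 bases after the start were at hand for 8 of the 10 genes (not for Il17ra and Il10rb). A GC box was in all 8 of them, against 35.7% of 32851 such windows, and the GC content of the 250 upstream bases was 54.0% to 74.0% in the 8, against a median of 52.4%. The 32851 windows were not limited to genes that entered the test, while all 8 genes did, so these shares come from unlike sets. The NF-κB consensus was in Ifngr2 and Il4ra, against 8.46% of windows, and TTCNNNGAA was in Ifnar1 and Ifnar2, against 8.30%. TTCNNNNGAA was in Ifngr2 alone, against 6.95%. The interferon response core GAAANNGAAA (3.44% of windows) and TATAAA (13.6%) were in none of the 8 windows. The Ifnar1 window, chr16:91484965-91485264, belongs to a start further inside the gene than the 91485032 given below. Its end was not found near a transcript start, so its matches are not placed from the start given below. Each match describes the letters only.

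The interferon-γ receptor is made of IFNGR1, which binds the ligand, and IFNGR2, the partner chain that brings JAK2. Ifngr1 (NCBI gene 15979, chr10:19591949-19610229 of GRCm38) stood at 31.9, 31.0, 29.4 and 29.5 FPKM in untreated libraries 1 to 4 and at 69.5, 65.4, 68.8 and 68.5 FPKM in cocktail libraries 1 to 4. Its lowest cocktail library was above 65 FPKM and its highest untreated library was below 32 FPKM, so the groups were far apart. The mean rose 2.23-fold, from 30.5 ± 1.23 FPKM untreated to 68.1 ± 1.83 FPKM with the cocktail (mean ± SD of 4 libraries each), with a log2 change of 1.13 (SE 0.034, limma adjusted p = 5.2e-11). The whole numbers of fragments behind these values were 1238 to 1301 in untreated and 2652 to 2962 in cocktail libraries.

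Ifngr2 (NCBI gene 15980, chr16:91547059-91564007) stood at 31.3, 28.8, 30.6 and 29.0 FPKM in untreated and at 55.5, 56.1, 57.6 and 55.8 FPKM in cocktail libraries. All cocktail libraries lay above all untreated ones, and those of a group lay close together. The mean rose 1.88-fold, from 29.9 ± 1.22 FPKM untreated to 56.3 ± 0.926 FPKM with the cocktail (mean ± SD of 4 libraries each), with a log2 change of 0.89 (SE 0.032, limma adjusted p = 2.8e-10). These were the most abundant receptor genes of the 10 in both groups. Ifngr1 moved from the 81.2 to the 92.6 percentile of all tested genes by FPKM, and Ifngr2 from the 80.9 to the 90.6 percentile. In bulk RNA a change in the number of expressing cells and a change in RNA per cell cannot be told apart, here and in every result that follows.

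Type I interferons bind IFNAR2 with high affinity and then recruit IFNAR1, which carries TYK2. Ifnar2 (NCBI gene 15976, chr16:91372783-91405589) stood at 9.67, 10.8, 10.8 and 10.2 FPKM in untreated and at 23.7, 25.1, 24.4 and 25.1 FPKM in cocktail libraries. Every cocktail library held more than any untreated library. The mean rose 2.37-fold, from 10.4 ± 0.552 FPKM untreated to 24.6 ± 0.678 FPKM with the cocktail (mean ± SD of 4 libraries each), with a log2 change of 1.17 (SE 0.040, limma adjusted p = 1.8e-10).

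Ifnar1 (NCBI gene 15975, chr16:91485032-91510523) stood at 12.7, 12.6, 12.4 and 12.2 FPKM in untreated and at 17.9, 18.0, 17.7 and 18.1 FPKM in cocktail libraries. The libraries within a group were nearly level and the groups did not overlap. The mean rose 1.44-fold, from 12.5 ± 0.197 FPKM untreated to 17.9 ± 0.168 FPKM with the cocktail (mean ± SD of 4 libraries each), with a log2 change of 0.49 (SE 0.030, limma adjusted p = 2.7e-08). It was the smallest rise among the 7 genes that rose, and 8.86% of all tested genes had a larger change. By these FPKM the order of the 2 chains turned over. In every untreated library Ifnar1 was above Ifnar2, and in every cocktail library Ifnar2 was above Ifnar1. Which chain is above rests on the lengths used, 7014 bases for Ifnar1 and 4186 for Ifnar2. The annotation used below for exon overlaps gives Ifnar2 3329 exon bases, and the order with other lengths was not tested. The shift of the FPKM ratio between groups does not depend on the lengths.

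Il10rb encodes the chain shared by the receptors for IL-10, IL-22 and interferon-λ, each of which needs a second, ligand-specific chain. Il10rb (NCBI gene 16155, chr16:91406157-91425834) stood at 9.28, 10.2, 9.54 and 9.61 FPKM in untreated and at 21.6, 22.4, 20.8 and 21.5 FPKM in cocktail libraries. The groups did not overlap. The mean rose 2.23-fold, from 9.66 ± 0.390 FPKM untreated to 21.6 ± 0.654 FPKM with the cocktail (mean ± SD of 4 libraries each), with a log2 change of 1.08 (SE 0.037, limma adjusted p = 1.9e-10). In GENCODE M21, used here for exon overlaps, Ifnar2 shares 315 of its 3329 exon bases and Il10rb 569 of its 3808 with Gm21970. Gm21970 is a gene model on the same strand with no FPKM of its own. The lengths behind the FPKM, 4186 bases for Ifnar2 and 2088 for Il10rb, were not those of this annotation. Whether the counting split or dropped fragments there is therefore not known.

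Ifnar2, Il10rb, Ifnar1 and Ifngr2 lie next to each other in this order on chromosome 16, within 191 kb, and all 4 rose. Within 100 kb on either side the table holds 5 more genes, all of them past Ifngr2 and none before Ifnar2. Of these 5, 4 were tested and none was called higher, against 26.6% of all tested genes. Gart, an enzyme of purine synthesis, fell from 17.8 ± 0.564 to 14.1 ± 0.139 FPKM (SD, n = 4, log2 change -0.31, limma adjusted p = 3.2e-06). Dnajc28, a DnaJ-domain gene, was 5.05 ± 0.360 and 4.42 ± 0.367 FPKM (SD, n = 4, log2 change -0.16, limma adjusted p = 0.035), and it was not called with median-ratio scaling (adjusted p = 0.17) or quantile scaling (adjusted p = 0.37). Tmem50b (log2 change -0.08, limma adjusted p = 0.059) and Son (log2 change 0.01, limma adjusted p = 0.76) were not called, and Gm36712 was at 0 in every library.

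IL-4Rα binds IL-4, and with IL-13Rα1 it forms the receptor through which cells outside the blood lineage respond to both IL-4 and IL-13. Il13ra1 (NCBI gene 16164, chrX:36112108-36171262) stood at 7.38, 6.83, 7.38 and 7.61 FPKM in untreated and at 22.1, 22.4, 25.0 and 24.6 FPKM in cocktail libraries. All cocktail libraries were far above the untreated ones, and libraries 3 and 4 were above libraries 1 and 2. The mean rose 3.22-fold, from 7.30 ± 0.334 FPKM untreated to 23.5 ± 1.51 FPKM with the cocktail (mean ± SD of 4 libraries each), with a log2 change of 1.56 (SE 0.048, limma adjusted p = 7.3e-11). This was the largest rise of the 10, and 1.78% of all tested genes had a larger change. The split among cocktail libraries ran the same way as the microglial marker sums given above; the log2 change was 1.49 without cocktail libraries 3 and 4 and 1.64 without 1 and 2, so the rise was present in either pair.

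Il4ra (NCBI gene 16190, chr7:125552271-125579474) stood at 3.59, 3.31, 3.56 and 3.74 FPKM in untreated and at 6.78, 6.39, 6.63 and 7.20 FPKM in cocktail libraries. The groups did not overlap, but the level stayed low next to its partner. The mean rose 1.90-fold, from 3.55 ± 0.178 FPKM untreated to 6.75 ± 0.341 FPKM with the cocktail (mean ± SD of 4 libraries each), with a log2 change of 0.77 (SE 0.049, limma adjusted p = 4.2e-08). An antisense gene model, Gm44876, covers 571 of the 6002 exon bases of Il4ra and has no row in the table. The libraries were made with a stranded kit, and whether the counting used strand is not given in the sources used here.

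IL-17RA is the chain common to the IL-17 receptors; IL-17RC joins it to bind IL-17A and IL-17F, and IL-17RB joins it to bind IL-25. Il17ra (NCBI gene 16172, chr6:120463181-120483731) stood at 5.01, 4.39, 4.78 and 4.88 FPKM in untreated and at 2.96, 2.85, 3.39 and 3.03 FPKM in cocktail libraries. Each cocktail library was below each untreated one. The mean was 1.56-fold lower, at 4.77 ± 0.270 and 3.06 ± 0.231 FPKM (SD, n = 4 in each group), with a log2 change of -0.51 (SE 0.055, limma adjusted p = 5.6e-06). Behind it were 336 to 402 fragments in untreated and 220 to 277 in cocktail libraries.

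Il17rb (NCBI gene 50905, chr14:29996168-30008896, minus strand) stood at 2.20, 1.59, 1.69 and 2.28 FPKM in untreated and at 0.386, 0.402, 0.213 and 0.215 FPKM in cocktail libraries. All untreated libraries were above 1 FPKM and no cocktail library was, and cocktail libraries 3 and 4 were lower than 1 and 2. The mean was 6.38-fold lower, at 1.94 ± 0.350 and 0.304 ± 0.104 FPKM (SD, n = 4 in each group), with a log2 change of -1.17 (SE 0.091, limma adjusted p = 2.7e-07). The fragments were 88, 63, 70 and 97 in untreated and 16, 16, 9 and 9 in cocktail libraries, all above the 3 fragments that a count of 0 allows. Adding 1 to FPKM compresses this gene: limma voom on the fragments gave a log2 change of -2.68 (SE 0.26, adjusted p = 6.8e-08), and a pseudocount of 0.1 gave -2.36. Because Il17rb entered the test only through its untreated libraries, a difference was built into its selection, and its call is a description rather than independent support. The log2 change was -1.07 without cocktail libraries 3 and 4 and -1.27 without 1 and 2. Its exons share 141 of 3707 bases with Actr8 on the opposite strand, whose level was 11.7 ± 0.577 and 11.3 ± 0.552 FPKM (SD, n = 4, limma adjusted p = 0.43).

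Il17rc (NCBI gene 171095, chr6:113471455-113483163) stood at 11.80, 12.32, 11.50 and 12.01 FPKM in untreated and at 11.95, 14.27, 12.27 and 12.20 FPKM in cocktail libraries. The groups overlapped, and cocktail library 2 stood above the rest. The means were 11.9 ± 0.348 and 12.7 ± 1.08 FPKM (SD, n = 4 in each group), and the log2 change was 0.08 (SE 0.052, 95% interval -0.03 to 0.19, limma adjusted p = 0.19). That interval allows changes far smaller than those of the other 9 genes but does not show that the level stayed the same. Scaling by median ratios gave 0.15 (limma adjusted p = 0.025) and scaling by quantiles 0.13 (limma adjusted p = 0.047), while leaving out cocktail library 2 gave 0.03 (limma adjusted p = 0.56).

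**Figure D2:**
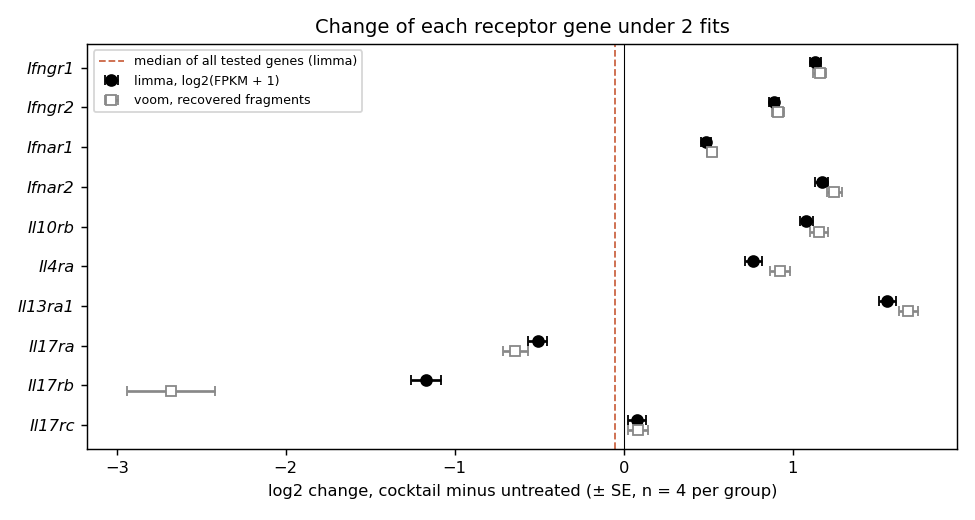
Log2 change (cocktail minus untreated) of the 10 receptor genes, with standard error bars, from limma on log2(FPKM + 1) (black) and from limma voom on whole fragments (open squares), n = 4 libraries per group. The dashed line is the median of all tested genes at -0.05; the estimates lie close together except for Il17rb, at -1.17 and -2.68, and both error bars of Il17rc lie near 0.

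Chains of one receptor did not move by equal amounts. In 5 pairs the ratio of the chains was taken within each library and compared between groups. The ratio of Ifngr1 to Ifngr2 FPKM was 1.02 ± 0.0477 in untreated and 1.21 ± 0.0379 in cocktail libraries, and that of Ifnar2 to Ifnar1 was 0.830 ± 0.0469 and 1.37 ± 0.0322 (SD, n = 4 in each group). The ratio of Il13ra1 to Il4ra was 2.06 ± 0.0166 and 3.49 ± 0.216, the former nearly the same in all untreated libraries. The ratio of Il17rc to Il17ra was 2.51 ± 0.206 and 4.17 ± 0.585, and that of Il17ra to Il17rb was 2.50 ± 0.342 and 11.2 ± 4.46. In each of the 5 pairs the ratio was higher in all 4 cocktail libraries than in any untreated one. Each ratio is written with the chain of higher log2 change on top, so the shared direction comes from that layout. How often other pairs of genes separate in this way was not tested. On the log2(FPKM + 1) scale the shifts of the first 4 pairs were 0.24, 0.68, 0.79 and 0.59 in this order, each with an exact two-sided permutation p of 0.0286 (0.0286 after adjustment over the 5 pairs), the smallest that 70 assignments can give. The shift of Il17ra to Il17rb was 0.66, and 1.73 with a pseudocount of 0.1 in place of 1. It is given as a description, since Il17rb entered only through its untreated libraries and a higher ratio with the cocktail was partly built into that selection.

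**Figure D3:**
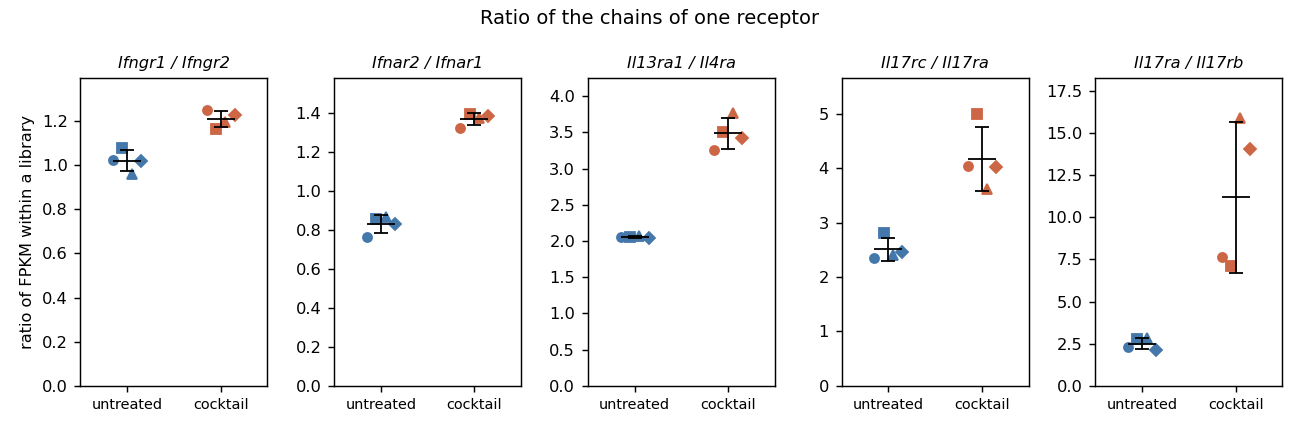
Ratio of FPKM of 2 chains of a receptor within each library (axes from 0), with a bar at the mean and its SD, for 4 untreated (blue) and 4 cocktail (orange) libraries. In all 5 pairs, each with the chain of higher log2 change on top, the cocktail points lie above the untreated ones. The Il17ra to Il17rb ratio is spread widely among cocktail libraries, where Il17rb rests on 9 to 16 fragments.

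By level per length, the untreated order was Ifngr1 and Ifngr2, then Ifnar1 and Il17rc, then Ifnar2 and Il10rb, followed by Il13ra1, Il17ra, Il4ra and Il17rb. The libraries of the genes joined by "and" in the first 3 places overlapped, and all other neighbours were separated. In cocktail libraries the order was Ifngr1, Ifngr2, Ifnar2, Il13ra1, Il10rb, Ifnar1, Il17rc, Il4ra, Il17ra and Il17rb. There Ifnar2 overlapped with Il13ra1, and Il13ra1 with Il10rb, and all other neighbours were separated. Il13ra1 moved from the 38.4 to the 75.2 percentile of tested genes, Ifnar2 from 49.9 to 76.3 and Il10rb from 47.4 to 73.3. Ifnar1 moved from the 56.1 to the 68.4 percentile, Il4ra from 19.5 to 37.8 and Il17rc from 54.3 to 57.8. Il17ra went from the 26.4 to the 18.9 percentile, and Il17rb from 9.06 to 0.270.

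The genes that act with these receptors were followed in lists. Their counts are to be read beside the 26.6% of all tested genes called higher and the 41.1% called lower. Names given are up to 3 of the largest rises and of the largest falls of a list. Other named genes were picked for their textbook role or their fold after their values were seen. Of 20 ligand genes, 13 were at 0 in every library, among them Ifng, Il4, Il13, Il22, Il17a and Il17f. The 2 tested ligands changed in opposite directions: Il19, an IL-10 family cytokine, rose from 0.0993 ± 0.0804 to 5.69 ± 0.914 FPKM (SD, n = 4, log2 change 2.60, limma adjusted p = 2.0e-10), from 1, 1, 2 and 5 fragments to between 109 and 160. The log2 change was 4.92 with a pseudocount of 0.1 and 5.74 in limma voom. Il19 entered the test only through its cocktail libraries, so its call is a description and not support. Il17d, a member of the IL-17 family, fell from 3.85 ± 0.471 to 1.55 ± 0.393 FPKM (SD, n = 4, log2 change -0.93, limma adjusted p = 1.2e-05). The interferon gene Ifnb1 was at 0 in 7 libraries.

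Most of the other chains that work with these receptors stayed below the filter of the test. Of 10 other receptor chains, 2 were tested and 1 rose, namely Il20rb, the chain that IL-19, IL-20 and IL-24 share. It stood at 0.374, 0.210, 0.543 and 0.196 FPKM in untreated and at 3.90, 4.22, 4.78 and 4.59 FPKM in cocktail libraries (log2 change 2.02, limma adjusted p = 1.4e-09, and 3.80 in limma voom). It too entered only through the cocktail libraries, so its call is likewise a description. Its partner in the IL-19 receptor, Il20ra, was at 0 in 7 libraries and at 0.033 FPKM in the other one. Il22ra1, the chain that pairs with Il10rb for IL-22, did not exceed 0.00894 FPKM in any library. Il10ra, the chain that pairs with Il10rb for IL-10, was 0.0970 to 0.171 FPKM in untreated libraries and 0.0427, 0.0888, 0.376 and 0.465 FPKM in cocktail libraries 1 to 4, the same split as the microglial markers; their part in it was not tested. Ifnlr1, the interferon-λ partner of Il10rb, was 0.206 to 0.467 FPKM in untreated and 0.319 to 0.533 FPKM in cocktail libraries. Il13ra2, a decoy receptor for IL-13, was 0 to 0.0823 FPKM in untreated and 0.150 to 0.489 FPKM in cocktail libraries, below the filter of the test. Il2rg, the common γ chain that pairs with IL-4Rα for IL-4, was 0.0583 to 0.188 FPKM in untreated and 0.280 to 0.938 FPKM in cocktail libraries, also below the filter, and its groups did not overlap. Il17re, the partner of IL-17RA for IL-17C, was 0.0459 to 0.188 FPKM in untreated libraries, 0.0471 FPKM in cocktail library 1 and 0 in the other 3. Il17rd was 1.28 to 1.60 FPKM in untreated and 1.43 to 1.64 FPKM in cocktail libraries and was not called (limma adjusted p = 0.46), although quantile scaling called both tested chains higher.

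Of 12 carriers of the signal inside the cell, namely JAK and STAT genes and Irf9, 11 were tested, 10 rose and none fell. Among all tested genes 26.6% were called higher and 41.1% lower. The median log2 change of the list was 0.47 against -0.05 for all tested genes. Irf9, neither a JAK nor a STAT, was among those that rose (log2 change 0.47, limma adjusted p = 1.1e-04). The number that rose was 8 without cocktail libraries 3 and 4. Jak2, the kinase on IFNGR2, rose 3.70-fold from 8.05 ± 0.164 to 29.8 ± 2.00 FPKM (SD, n = 4, log2 change 1.76, limma adjusted p = 1.6e-11). Stat5a rose from 4.18 ± 0.0881 to 11.6 ± 0.400 FPKM (SD, n = 4, log2 change 1.29, limma adjusted p = 6.1e-11), and Stat3, the main STAT of the IL-10 family receptors, from 96.8 ± 1.29 to 177 ± 1.09 FPKM (SD, n = 4, log2 change 0.86, limma adjusted p = 1.9e-11). Jak1, which most of these receptors share, had a log2 change of 0.10 (limma adjusted p = 0.015) that was not called without cocktail libraries 3 and 4 (adjusted p = 0.16), and Stat6, the STAT of IL-4 and IL-13, had one of 0.25 (limma adjusted p = 0.0013). Jak3, the kinase of the common γ chain, was not called (limma adjusted p = 0.95).

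Of 12 genes that dampen these receptors, 11 were tested, 6 rose and 2 fell, with a median log2 change of 0.26. The shares of all tested genes were 26.6% called higher and 41.1% called lower. The phosphatase genes Ptpn1 (15.0 ± 0.817 to 47.3 ± 2.50 FPKM, log2 change 1.60, limma adjusted p = 4.0e-11) and Ptpn2 (4.92 ± 0.161 to 12.3 ± 1.35 FPKM, log2 change 1.16, limma adjusted p = 1.2e-08) rose (SD, n = 4). Usp18, which binds IFNAR2 and limits its signal, rose from 15.3 ± 3.58 to 29.7 ± 4.23 FPKM (SD, n = 4, log2 change 0.93, limma adjusted p = 7.9e-05). The 2 that fell were Pias3 (log2 change -0.16, limma adjusted p = 0.010) and Pias1 (log2 change -0.15, limma adjusted p = 0.014), inhibitors of STAT factors. Neither was called with median-ratio or quantile scaling or without cocktail libraries 1 and 2, and the quantile scaling called 8 higher. Of 13 adaptors, mediators and inhibitors of IL-17 receptor signalling, all tested, 6 rose and 1 fell, against the same shares. The median log2 change of these 13 was 0.08. With median-ratio scaling 9 rose and 0 fell. Tnfaip3, Zc3h12a and Usp25 are among the inhibitors, so the counts mix genes of opposite roles. The largest rises on the log2(FPKM + 1) scale were in 3 genes that other NF-κB stimuli also induce, Tnfaip3 (log2 change 3.17), Nfkbiz (1.72) and Zc3h12a (1.63). The 1 that fell was Usp25 (17.3 ± 0.574 to 15.6 ± 0.368 FPKM, SD, n = 4, log2 change -0.14, limma adjusted p = 0.0035), a deubiquitinase of the IL-17 pathway, which was not called with median-ratio scaling (adjusted p = 0.11). Traf3ip2, the adaptor Act1, rose from 2.19 ± 0.376 to 4.30 ± 0.474 FPKM (SD, n = 4, log2 change 0.74, limma adjusted p = 1.1e-05).

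Genes known as targets of these receptors are also targets of other signals, IL-1α and TNFα among them. The share of all tested genes called higher, for the counts that follow, was 26.6%. Of 16 interferon target genes, 14 were tested and all 14 rose, with a median log2 change of 1.48; 1 of them entered only through the cocktail libraries. The largest rises on the log2(FPKM + 1) scale were in Gbp2 (55.9 to 395 FPKM), Ifi44 (7.12 to 37.3 FPKM) and Cxcl10 (117 to 543 FPKM), given as group means. By fold of the group means Cxcl9 (6.48-fold) was above Ifi44 (5.24-fold), and Oas1a (5.21-fold) was above Cxcl10 (4.63-fold). Cxcl9 is the gene that entered only through the cocktail libraries, so its fold is a description. Of 14 IL-17 target genes, 13 were tested and all 13 rose, with a median log2 change of 2.98; 2 of them entered only through the cocktail libraries, and Nfkbiz and Zc3h12a are also in the adaptor list. The largest rises on the log2(FPKM + 1) scale were in the chemokine genes Ccl7 (2.55 to 153 FPKM), Cxcl1 (28.4 to 762 FPKM) and Cxcl5 (6.08 to 178 FPKM). By fold, Csf2 (36.6-fold) was above Cxcl5 (29.2-fold) and Cxcl1 (26.8-fold). Csf2 is 1 of the 2 that entered only through the cocktail libraries, so its fold is a description. It rests on 1, 2, 2 and 0 fragments in untreated libraries 1 to 4. Of 13 STAT6 target genes, 3 were tested and 1 rose, Tgm2, a transglutaminase (14.1 ± 0.661 to 34.6 ± 1.56 FPKM, SD, n = 4, log2 change 1.23, limma adjusted p = 1.5e-10). Quantile scaling called 2 of the 3 higher. Chil3, Retnla and Ccl24 of that list were at 0 in every library.

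**Figure D4:**
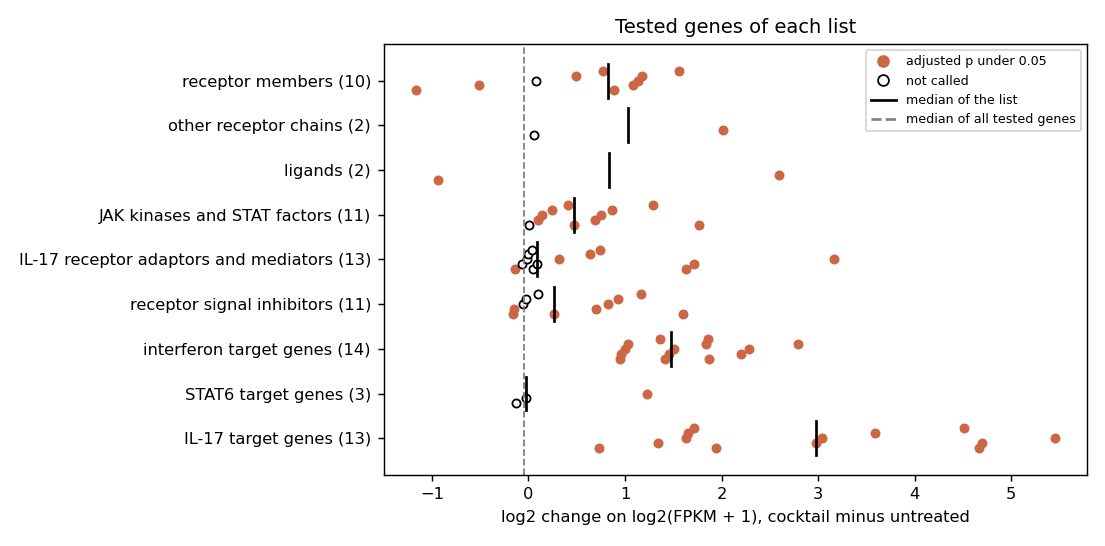
Log2 change on log2(FPKM + 1), cocktail minus untreated, of each tested gene of the receptor set and of 8 lists around it, with the number tested in brackets, filled points for adjusted p under 0.05 and a bar at the list's median. The bars of the interferon and IL-17 target lists lie at 1.48 and 2.98, that of the receptor genes at 0.83, and that of all tested genes (dashed) at -0.05.

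For the 3 receptor genes with the largest changes, the tested genes with the most similar profile were found by the root mean square difference over the 8 libraries of log2(FPKM + 1), centred on the untreated mean. Nearest to Il13ra1 were Ndrg1 (difference 0.0484, 118 to 344 FPKM), Litaf (0.0487, 11.4 to 35.3 FPKM) and Parp14 (0.0494, 9.83 to 31.7 FPKM). Nearest to Ifnar2 were Nfkbib, an inhibitor of NF-κB (0.0308, 7.88 to 18.8 FPKM), Tcirg1 (0.0548, 15.8 to 36.9 FPKM) and Gng12 (0.0552, 53.9 to 125 FPKM). Nearest to Il17rb were Cenpn (0.0653, 5.19 to 1.85 FPKM), Foxm1 (0.0793, 9.34 to 3.51 FPKM) and Cenpa (0.0856, 9.42 to 3.87 FPKM), which are known from cell division. The likeness to Il17rb holds on that scale only: Il17rb was 6.38-fold lower by FPKM, while Cenpn, Foxm1 and Cenpa were 2.80-fold, 2.66-fold and 2.43-fold lower. These genes were ranked by likeness over the same 8 libraries, so the values are a description.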

How the data were processed

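RNA sequencing of 4 untreated and 4 cocktail libraries was used as the FPKM values the authors deposited. DESeq and mm10 are named in the submitters' processing notes, while the read aligner and counter are not given in the sources at hand. Groups came from the sample titles, since the treatment labels of 3 cocktail libraries spell C1q with other digits. The FPKM of each gene are whole multiples of what 1 fragment is worth (relative tolerance 1e-11). This gave back whole fragments for 100% of the 16557 genes that 2 or more libraries detected, and for none of the 701 genes detected in a single library. Totals per library were 19195898 to 20640490 fragments, and limits from fragments cover counting error only. Pairs of libraries within a group differed by more than sampling noise (chi-square per gene of 2.11 to 6.79 against 1), and each library entered as 1 sample.

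The 11845 genes that reached 1 FPKM in 4 or more of the 8 libraries were tested by limma 3.58.1 in R 4.3.3. The fit used log2(FPKM + 1), a trended prior variance and no covariate, with two-sided p-values adjusted by Benjamini-Hochberg over all of them and called under 0.05. On this scale low genes show a smaller change than their fold. limma voom on the whole fragments called 3164 genes higher and 4909 lower; it stood in for the count tools, which were not run. Chain ratios and marker lists were compared by exact two-sided permutation over 70 assignments. Alternatives were another pseudocount, filter, scaling and variance model, the replicate block, each library left out, and, chosen after seeing the data, cocktail libraries 1 and 2 or 3 and 4 left out. The text names the 10 receptor genes, up to 3 largest rises and 3 largest falls of each list, and the 3 nearest profiles of the 3 receptor genes with the largest change. It also names marker genes, genes beside or overlapping the receptor genes, and others picked for textbook role or fold after their values were seen. The receptor genes and lists were chosen with earlier results of these data known. Positions are from RefSeq on GRCm38.p6, exon overlaps from GENCODE M21.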

Additional observations from a re-analysis of the deposited data

Results flagged for a closer look

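Cocktail library 2 held 14.3 FPKM of Il17rc, the chain that joins IL-17RA to bind IL-17A and IL-17F, while the other 3 cocktail libraries held 11.95 to 12.27 FPKM. Its distance to the nearest of them was 0.866 of the group's whole range, above the limit set for 4 samples. Of the 20 groups of 4 libraries formed by the 10 receptor genes, it was the 1 marked in this way, and chance alone marks about 1 in 20.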

How the results depend on the processing

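The calls of Ifngr1, Ifngr2, Ifnar1, Ifnar2, Il10rb, Il4ra, Il13ra1, Il17ra and Il17rb held their direction and their side of the threshold in every alternative that tested them. Il17rc was the exception, with a log2 change of 0.15 under median-ratio scaling and 0.13 under quantile scaling, both called. With a mean of at least 5 FPKM required, 0 receptor genes were lower, because Il17ra and Il17rb were then not tested. Over the alternatives the log2 changes ran from 1.49 to 1.69 for Il13ra1, from 0.48 to 0.56 for Ifnar1, from -0.64 to -0.39 for Il17ra and from -2.68 to -1.07 for Il17rb. Without a filter 17258 genes were tested, 3504 were higher and 5685 lower. With each library left out in turn, 2942 to 3059 genes were higher and 4664 to 4765 lower. A fit with the replicate number as a block (replicate block) called 3121 genes higher and 4829 lower and changed no receptor call. The numbers share no stated source, and deviations of same-numbered libraries correlated at -0.044, 0.078, 0.086 and -0.0071, so the samples share only a number. Depth limits Il17rb most, with 9 to 16 fragments per cocktail library.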
